A study of Mus musculus with 28 samples.

Results

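Gene activity in the gut wall of specific pathogen-free (SPF) mice was examined for a segment by fraction interaction, the question of whether the difference between colon and small intestine was the same in neuronal as in non-neuronal nuclei. For each gene the measure was a difference of differences on the log2 scale: colon minus small intestine in neuronal libraries, less the same difference in non-neuronal libraries. It used the 16 SPF libraries of 28 in all, with 4 in each of 4 groups: colonic neuronal, colonic non-neuronal, small intestinal neuronal and small intestinal non-neuronal nuclei. The mice were C57BL/6, and each received an intravenous adeno-associated virus of serotype AAV9 in which the CaMKII promoter drives EGFP-KASH, a green protein anchored in the nuclear envelope. Nuclei were taken 5 weeks later from the peeled longitudinal muscle layer with the myenteric plexus, and sorted into EGFP-positive nuclei (neuronal here) and EGFP-negative nuclei (non-neuronal here). The other 12 libraries came from germ-free (GF) C57BL/6 mice given the same virus, 3 in each of the same 4 groups, and serve as libraries that the SPF test did not use. The labels give no age and no sex, and tie no library to an animal. Apart from the split by Xist level given below, replicates may therefore differ for technical reasons alone, and p-values speak only of how far these libraries spread. The EGFP-positive gate holds nuclei in which the promoter was active, and the sources used here do not give the share of neurons that carried the reporter.

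The myenteric plexus is the network of ganglia between the muscle layers that drives gut movement. Its neurons lie among smooth muscle cells, interstitial cells of Cajal (the pacemaker cells of gut muscle), PDGFRA-positive fibroblast-like cells, glia, macrophages and vessels. The colon and the small intestine differ in the mix of these cells and in the subtypes of neuron they hold. An interaction of either sign therefore does not name the cell that carries a transcript, and called genes were sorted by the groups in which they were detected at level. In bulk libraries such as these, fewer nuclei of a type and less RNA per nucleus cannot be told apart.

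To show the promoters of genes that stand for the 4 largest patterns described here, the 250 bases before the RefSeq start (build GRCm38.p6, 5′ to 3′ on the strand of the gene) are printed for 1 gene of each. These are Gria4, carried by both neuronal groups (chr9:4796235-4796484, minus strand), Prox1, carried by colonic non-neuronal libraries (chr1:190170828-190171077, minus strand), Fendrr, carried by both non-neuronal groups (chr8:121083111-121083360, minus strand), and Kcnn3, a gene of positive interaction (chr3:89519914-89520163, plus strand). Capitals mark 3 core promoter motifs searched on both strands: the TATA box, with the letters TATAAA, the CCAAT box itself and the GC box, with the letters GGGCGG.
Gria4: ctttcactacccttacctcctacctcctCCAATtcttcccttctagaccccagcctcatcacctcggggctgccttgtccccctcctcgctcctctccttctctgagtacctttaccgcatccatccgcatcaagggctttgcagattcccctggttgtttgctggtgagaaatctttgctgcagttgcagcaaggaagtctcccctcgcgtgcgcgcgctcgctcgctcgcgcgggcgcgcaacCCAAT
Prox1: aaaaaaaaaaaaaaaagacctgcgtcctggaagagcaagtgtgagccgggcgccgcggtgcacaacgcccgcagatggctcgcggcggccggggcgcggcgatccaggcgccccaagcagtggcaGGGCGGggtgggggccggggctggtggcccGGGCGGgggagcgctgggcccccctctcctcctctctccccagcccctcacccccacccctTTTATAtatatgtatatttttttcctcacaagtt
Fendrr: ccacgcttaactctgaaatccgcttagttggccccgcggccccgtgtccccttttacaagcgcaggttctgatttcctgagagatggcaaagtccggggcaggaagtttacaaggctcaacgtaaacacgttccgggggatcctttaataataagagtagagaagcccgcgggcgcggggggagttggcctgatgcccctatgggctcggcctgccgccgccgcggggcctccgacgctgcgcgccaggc
Kcnn3: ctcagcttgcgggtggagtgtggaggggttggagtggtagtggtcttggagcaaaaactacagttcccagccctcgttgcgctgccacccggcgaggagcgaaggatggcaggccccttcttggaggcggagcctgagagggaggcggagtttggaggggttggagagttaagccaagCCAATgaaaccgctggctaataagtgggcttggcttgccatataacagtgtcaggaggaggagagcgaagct
The Gria4 window held CCAAT at 2 places and the Kcnn3 window at 1 place. The Prox1 window held GGGCGG at 2 places and TATAAA at 1 place, the latter on the other strand and so printed as TTTATA. None of the 3 letter strings was found in the Fendrr window. Promoters were in the table for 89 of the 157 called genes, matched by symbol. TATAAA was in 10.1% of these windows, CCAAT in 37.1% and GGGCGG in 52.8%, against 6.73%, 35.8% and 56.9% of the 11260 windows of tested genes and 13%, 34.5% and 33.0% of all 27025 windows of the same length.

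Several libraries stood apart and bear on the results. SPF library totals ran from 2394481 to 4618379 counts, 10286 to 15661 genes reached 10 counts, and levels are given in CPM, the usual depth-scaled share of the library total. Small intestinal non-neuronal replicate 1 held more neuronal RNA than its group: the 15 pan-neuronal markers summed to 785 CPM there against 82.3, 140.3 and 139 CPM in the other 3 libraries of its group, 994 to 2202 CPM in colonic non-neuronal, 4751 to 6063 CPM in colonic neuronal and 4253 to 5856 CPM in small intestinal neuronal libraries. Its sum for the 6 markers of interstitial cells of Cajal was 1352 CPM against 319 to 387 CPM in the other 3 libraries of its group. Small intestinal neuronal replicate 1 stood out in the same list, at 2408 CPM against 734 to 852 CPM. Mitochondrial genes took 0.423% to 0.598% of counts in colonic neuronal, 3.49% to 7.44% in colonic non-neuronal, 2.75% to 6.82% in small intestinal neuronal and 11.1% to 12.9% in small intestinal non-neuronal libraries. Smooth muscle markers, from the main cell of this layer, summed to 9480 to 20080 CPM in non-neuronal and 608 to 1624 CPM in neuronal libraries. Xist divided the SPF libraries into 8 of high and 8 of low level, with replicates 1 and 2 low and replicates 3 and 4 high in every group, so this split is balanced over the 4 groups. Fitted on replicates 1 and 2 alone the interaction was called for 6 genes with edgeR, and on replicates 3 and 4 alone for 168.

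**Figure D1:**
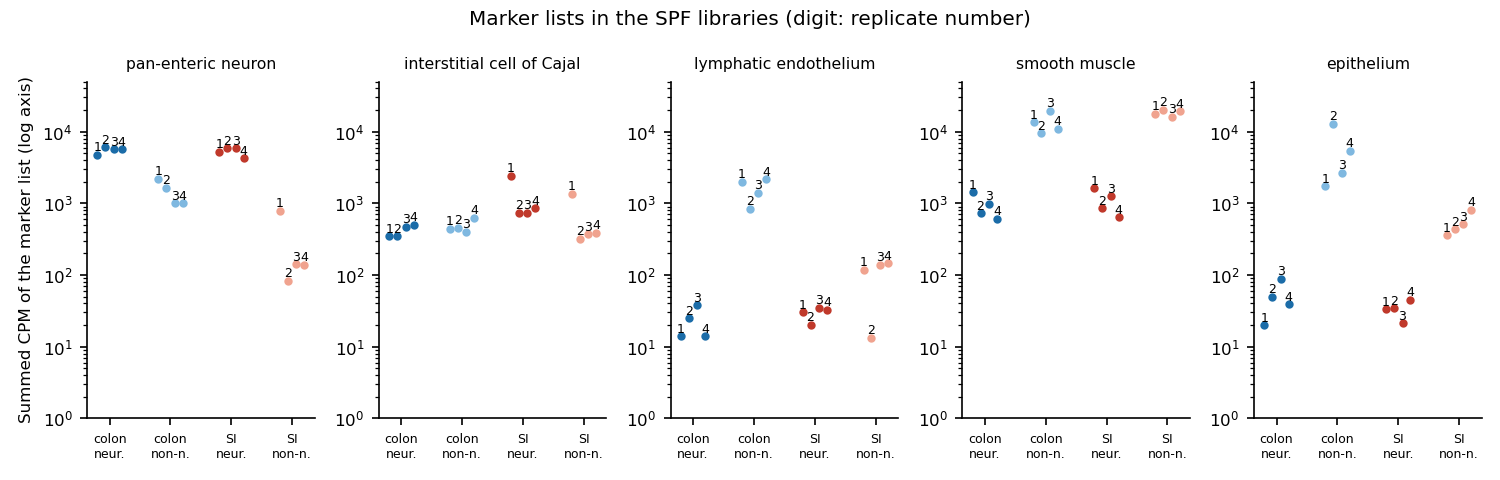
Summed CPM of 5 marker lists (log axis) in each SPF library, by group, with the replicate number above each point. Replicate 1 of the small intestinal non-neuronal group lies above its group for the neuron list (785 CPM) and the interstitial cell of Cajal list (1352 CPM), and replicate 1 of the small intestinal neuronal group for the latter list (2408 CPM).

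Of 17618 genes tested with edgeR, 157 (0.891%) passed an adjusted p of 0.05 by the Benjamini-Hochberg method and are named called genes. The interaction was negative for 137 of them (0.778% of genes tested) and positive for 20 (0.114%). A negative value means that the colon minus small intestine difference was lower in neuronal than in non-neuronal libraries. Over all tested genes the median interaction was -0.195 on the log2 scale, with 9714 genes below 0 and 7904 above, and 2333 genes had an unadjusted p below 0.05. Scaling by library totals without TMM, the scaling factor used in the test, moved that median to -0.409 and gave 203 calls, of which 152 were among the 157. The number called was 92, 104, 92 and 93 without colonic neuronal replicates 1 to 4 in turn, 88 and 101 without small intestinal neuronal replicates 2 and 3, and 455 without small intestinal non-neuronal replicate 1. Of the 157, 66 were called in each of the 16 fits that left out 1 library, and 91 lost their call in 1 or more of them. In addition, 59 had a group with at most 3 counts, where the fitted value depends on the prior count. The median over the 157 was -5.29 as fitted and -5.10 with those groups set at 3 counts. Mean CPM was highest in small intestinal neuronal libraries for 50 of the 157, in colonic neuronal libraries for 55, in colonic non-neuronal libraries for 28 and in small intestinal non-neuronal libraries for 24.

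A group was counted as carrying a gene where its mean was at least 0.25 of the highest group mean. By this description, 92 of the 157 called genes (58.6%) were carried by both neuronal groups and not by small intestinal non-neuronal libraries, and 54 of these 92 were also carried by colonic non-neuronal libraries. A further 16 were carried by colonic non-neuronal libraries alone, and 16 by both non-neuronal groups but not by colonic neuronal libraries. The remaining 13 negative genes had other patterns, and the 20 positive genes form the last set. Both sets of 16 changed in size with the fit: the first ranged over 5 to 30 genes and the second over 10 to 23 when 1 library was left out. The patterns come from the same libraries as the calls and are a description without a test. With 0.5 or 0.1 of the highest mean as the limit, the first set held 71 or 95 genes.

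**Figure D2:**
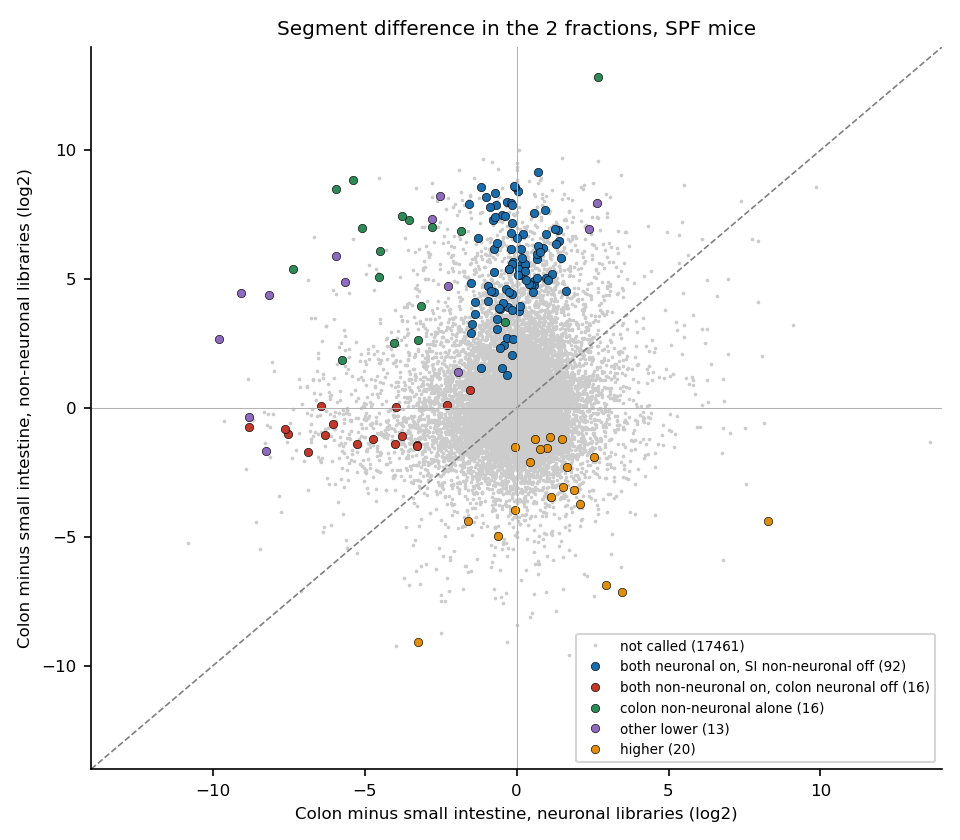
Fitted log2 difference between colon and small intestine in neuronal libraries (x axis) and in non-neuronal libraries (y axis) for all 17618 tested genes, with the 157 called genes coloured by the groups that carry them. Distance from the dashed diagonal is the interaction: the 92 genes carried by both neuronal groups lie near 0 on the x axis and above 0 on the y axis, and the 16 genes carried by both non-neuronal groups lie near 0 on the y axis and left of 0 on the x axis.

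The largest set is named the neuronal set here, after the 2 neuronal groups that carry it. Its 92 genes had median group levels of 108 CPM in colonic neuronal, 91.6 CPM in small intestinal neuronal and 35.4 CPM in colonic non-neuronal libraries, but 0.476 CPM in small intestinal non-neuronal libraries. For the median gene the colonic non-neuronal level was 37.2% of the colonic neuronal level, with the 10th to 90th percentile of genes at 13% to 109%. The small intestinal non-neuronal level was 0.722% of the small intestinal neuronal level. Some genes of the set held more in colonic non-neuronal than in neuronal libraries. Among them was Ttc39a, with 1103 counts in all there against 268 in colonic and 283 in small intestinal neuronal libraries. Its colonic non-neuronal libraries were uneven, at 4.29 to 173 CPM. The lowest lay below every neuronal library (5.90 to 34.7 CPM in colonic and 13.8 to 26.3 CPM in small intestinal ones). The colonic and small intestinal neuronal libraries overlapped for 77 of the 92 genes, while for 91 of them every colonic non-neuronal library lay above every small intestinal non-neuronal library. The set was chosen on values of these same libraries, so these overlaps describe the choice. Their share over all tested genes was not counted. The fitted interactions ran from -9.75 to -1.59 with a median of -5.31, and -5.17 with low groups set at 3 counts. The pan-neuronal marker sums also differed between the non-neuronal groups (994 to 2202 CPM in colonic and 82.3 to 785 CPM in small intestinal libraries), and their part in these calls was not tested.

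In GENCODE M21 (build GRCm38) the gene bodies of the main examples were Gria4 at chr9:4417896-4796234, Prph at chr15:99055174-99058978, Prox1 at chr1:190118035-190170714, Fendrr at chr8:121054882-121083110, Ano1 at chr7:144588549-144751974, Grm8 at chr6:27275119-28135178, Pde1c at chr6:56069804-56569103 and Kcnn3 at chr3:89520164-89675132, with Prph and Kcnn3 on the plus strand and the others on the minus strand. Dscaml1 and its relative Dscam encode cell adhesion molecules of the immunoglobulin family that guide the spacing and wiring of neurons. Dscaml1 stood at 65.3, 213, 79.5 and 80.8 CPM in the 4 colonic neuronal libraries and at 99.2, 96.5, 91.9 and 80.4 CPM in the small intestinal neuronal ones. Its colonic non-neuronal libraries held 48.4, 48.3, 54.6 and 19.9 CPM, and the 4 small intestinal non-neuronal libraries held 1 count in all. The neuronal groups overlapped, and the non-neuronal groups did not. The fitted interaction was -8.36 (SE 1.05, edgeR adjusted p = 4.1e-04), and it was -7.15 when that group was set at 3 counts, the limit a count of 0 allows, because a fitted value beside so few counts depends on the prior count. Dscam held 187, 260, 266 and 132 CPM in colonic neuronal, 196, 186, 136 and 149 CPM in small intestinal neuronal and 25.4, 6.06, 30.5 and 48.1 CPM in colonic non-neuronal libraries. Small intestinal non-neuronal libraries held 0.317 to 0.557 CPM of Dscam, below all of the other 12. Its interaction was -5.39 (SE 0.80, edgeR adjusted p = 8.9e-04).

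Pcdh15, a protocadherin best known from hair cells, was the most abundant of the named genes of the set, with 510 to 1214 CPM in colonic and 713 to 865 CPM in small intestinal neuronal libraries. It stood at 254, 252, 96.8 and 79.9 CPM in colonic non-neuronal libraries and at 17.2, 1.90, 4.45 and 1.81 CPM in small intestinal non-neuronal libraries, with replicate 1 highest. The interaction of Pcdh15 was -4.58 (SE 0.74, edgeR adjusted p = 0.0022). Pcdha8, a clustered protocadherin, held 14.4 to 31.5 CPM in colonic neuronal, 14.3 to 62.6 CPM in small intestinal neuronal and 6.55 to 16 CPM in colonic non-neuronal libraries. No count of Pcdha8 was found in any small intestinal non-neuronal library. Pcdha8 shares its last exons with the other genes of its cluster, so its counts rest on how reads were divided among them.

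Gria4, a subunit of AMPA-type glutamate receptors, held 185, 231, 162 and 236 CPM in colonic neuronal and 159, 162, 248 and 107 CPM in small intestinal neuronal libraries. Gria4 stood at 138, 114, 74.1 and 54.4 CPM in colonic non-neuronal and at 1.62, 3.48, 1.95 and 0.903 CPM in small intestinal non-neuronal libraries. The 2 neuronal groups overlapped, the colonic non-neuronal group partly overlapped with the small intestinal neuronal one, and small intestinal non-neuronal libraries lay far below (interaction -5.03, SE 0.67, edgeR adjusted p = 4.1e-04). Oprm1, the mu opioid receptor, P2rx2, an ATP-gated channel, and Chrnb2, a nicotinic receptor subunit, were the 3 of 22 tested transmitter receptor genes that were called, all negative (interactions -5.05, -4.64 and -5.36). Of all genes tested 0.891% were called. The call of P2rx2 was lost in 4 of the 16 fits without 1 library (edgeR adjusted p up to 0.0536) and that of Chrnb2 in 12, up to an adjusted p of 0.163 without colonic non-neuronal replicate 2. Without small intestinal non-neuronal replicate 1 the receptor list held 8 called genes, of 455 called in that fit. The median of that list was -3.13 (-3.15 with low groups set at 3 counts), and 17 of the 22 lay below 0, beside 9714 of all 17618 genes. Of 22 genes of synaptic vesicles and exocytosis, 2 were called, both negative, among them the active zone gene Rims2, and the list median was -1.43. Rims2 lost its call in 11 of the 16 fits (edgeR adjusted p up to 0.0966), while the list held 9 called genes without small intestinal non-neuronal replicate 1. Bsn and Rimbp2, further active zone genes, were also in the set with interactions of -4.39 and -4.37.

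Prph, the intermediate filament of peripheral neurons, held 738, 759, 454 and 447 CPM in colonic neuronal and 365, 442, 306 and 388 CPM in small intestinal neuronal libraries. It held 152, 109, 45.2 and 42.8 CPM in colonic non-neuronal and 6.15, 2.22, 1.39 and 0.226 CPM in small intestinal non-neuronal libraries. No library of 1 group overlapped with another group, and the interaction of Prph was -4.28 (SE 0.74, edgeR adjusted p = 0.0043). Phox2a, a homeobox factor of autonomic neurons, was at 24.4 to 49.3 CPM in colonic neuronal, 18.7 to 47.2 CPM in small intestinal neuronal and 8.59 to 24.8 CPM in colonic non-neuronal libraries, and at 0 in all 4 small intestinal non-neuronal libraries. Its fitted interaction was -8.62 (edgeR adjusted p = 0.0068), and -5.76 with the last group at 3 counts. Srrm4, a splicing factor of neurons, held 167 to 293, 260 to 348, 45.3 to 142 and 2.94 to 8.91 CPM in colonic neuronal, small intestinal neuronal, colonic non-neuronal and small intestinal non-neuronal libraries (interaction -4.10, SE 0.60). Crmp1, a collapsin response protein of growth cones, varied among colonic neuronal libraries, at 532, 280, 528 and 105 CPM, against 90.5 to 206 CPM in small intestinal neuronal libraries. Crmp1 held 35.1 to 89.5 CPM in colonic non-neuronal and 0 to 0.647 CPM in small intestinal non-neuronal libraries (interaction -5.52, SE 0.86). Fam155a, which encodes a subunit of the NALCN channel complex, and Prr36 completed the leading genes, with interactions of -5.27 and -7.04. Exons of Dscaml1, Dscam, Srrm4, Prr36, Phox2a, Oprm1, Rimbp2 and Chrnb2 overlap those of another gene on the other strand. The same holds for other called genes, among them Heg1, Arhgef5, Cdc14a, Cdh9 and Tmem45b. The sources used here do not say whether counting used strand.

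Most pan-neuronal markers had the same sign without a call. Of the 15 markers, 14 lay below 0, with a median interaction of -2.97 (-3.06 with groups of at most 3 counts set at 3), and 2 were called, Prph and Phox2a. Among all genes tested, 9714 of 17618 lay below 0 and 0.891% were called. Snap25, a protein of vesicle fusion, held 2.22, 30.6 and 64.3 CPM in 3 small intestinal non-neuronal libraries and 427 CPM in replicate 1, and its interaction was -2.26 (SE 1.26, edgeR adjusted p = 0.480). Chat, the enzyme that makes acetylcholine, was at 35.9 CPM in replicate 1 and at 0 to 1.13 CPM in the other 3 libraries of that group. Nos1, which makes nitric oxide in inhibitory motor neurons, was at 265 CPM there and at 5.19 to 13.3 CPM in the others. Leaving out small intestinal non-neuronal replicate 1 raised the number of genes called from 157 to 455, of which 156 were among the 157, and the neuronal set from 92 to 320 genes. Without it 10 of the 15 pan-neuronal markers were called, all negative, and the interactions were -4.19 for Snap25, -7.11 for Chat and -3.92 for Nos1, each called. Hand2, the 1 marker above 0, is also a gene of gut muscle and stood at 65.0 CPM on average in small intestinal non-neuronal libraries. Which cells carried Hand2 here was not tested.

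**Figure D3:**
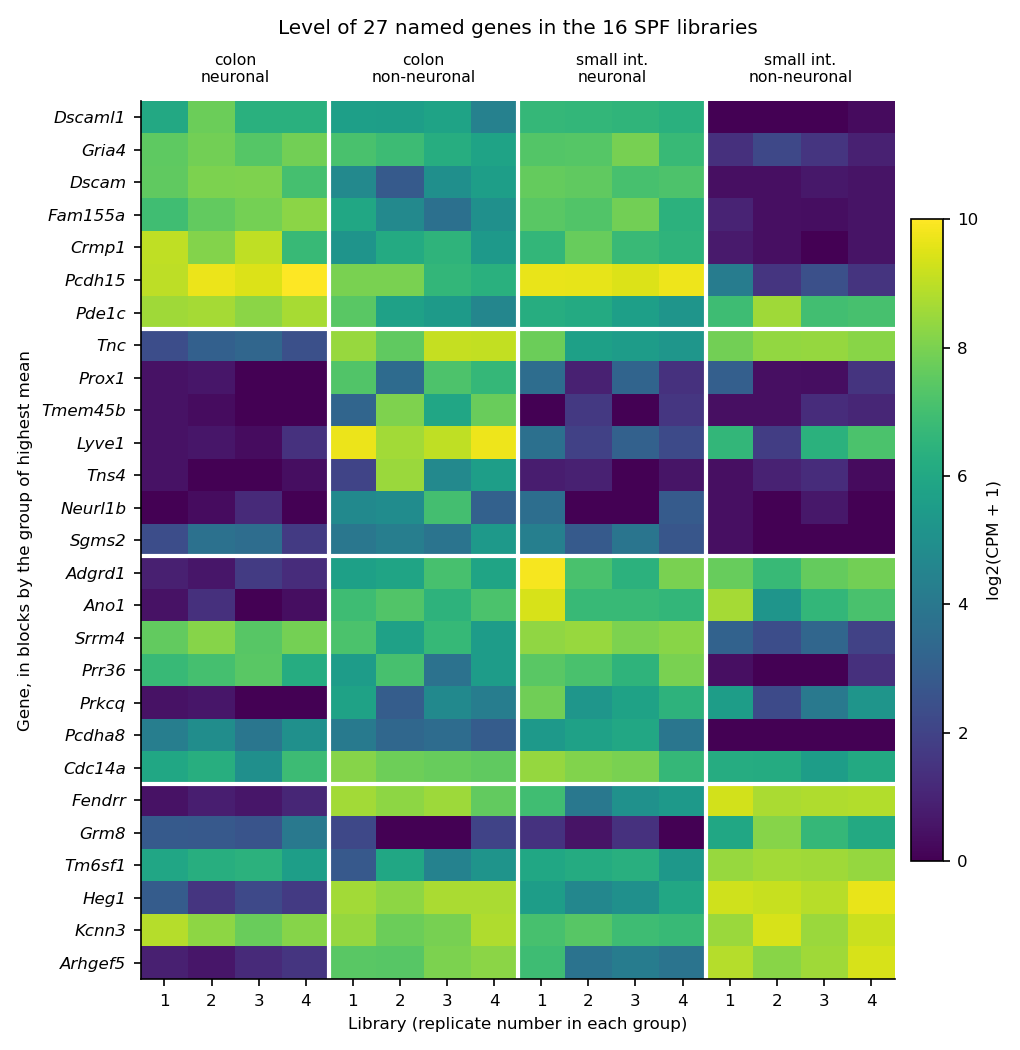
Level of 27 named genes as log2(CPM + 1) in the 16 SPF libraries, with genes in blocks by the group of highest mean. The genes of the first block other than Pde1c are bright in both neuronal groups, dimmer in colonic non-neuronal and dark in small intestinal non-neuronal libraries.

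The 16 genes carried by colonic non-neuronal libraries alone included Prox1, Lyve1, Ccl21a, Ecscr and Muc2 of the lists of lymphatic, blood endothelial and epithelial markers. These 16 genes had a median of 76.9 CPM in that group, against 0.172 CPM in colonic neuronal, 2.13 CPM in small intestinal neuronal and 0.703 CPM in small intestinal non-neuronal libraries. Prox1, the homeobox factor that sets lymphatic identity, held 155, 10.2, 147 and 101 CPM in colonic non-neuronal libraries, with replicate 2 far below the others. Prox1 was at 10.8, 0.873, 8.35 and 1.72 CPM in small intestinal neuronal and at 7.12, 0.317, 0.278 and 1.81 CPM in small intestinal non-neuronal libraries, and colonic neuronal libraries held 3 counts in all. Its interaction was -9.59 (SE 1.71, edgeR adjusted p = 0.0051). Lyve1, a hyaluronan receptor of lymphatic vessels and of some macrophages, was at 827, 386, 531 and 867 CPM in colonic non-neuronal libraries and at 97.7, 2.53, 82.4 and 141 CPM in small intestinal non-neuronal ones. In neuronal libraries Lyve1 stood at 0.256 to 1.67 CPM in the colon and at 2.84 to 12.1 CPM in the small intestine (interaction -5.90, SE 1.07, edgeR adjusted p = 0.0070). Small intestinal non-neuronal replicate 2 lay below every small intestinal neuronal library for Lyve1, while the other 3 libraries of its group lay above all neuronal libraries and below all colonic non-neuronal ones.

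Of the 7 lymphatic markers, 3 were called, Prox1, Lyve1 and the chemokine gene Ccl21a, all negative, with a list median of -5.82 (-5.75 with low groups set at 3 counts) and 6 of 7 below 0. Over all tested genes 0.891% were called and 9714 of 17618 lay below 0. Ccl21a held 311, 139, 289 and 322 CPM in colonic non-neuronal libraries, 0 to 2.07 CPM in colonic neuronal libraries and 0 in 7 of the 8 small intestinal libraries, with 0.492 CPM in the other 1. Its call was lost in 7 of the 16 fits without 1 library, at edgeR adjusted p from 0.0509 to 0.0562 in 6 of them and at 1 without small intestinal neuronal replicate 4. Ccl21a has near-identical copies in the mouse genome, so its counts may be shared among them. Summed over the list, lymphatic markers ran from 838 to 2151 CPM in colonic non-neuronal libraries, from 13.3 to 146 CPM in small intestinal non-neuronal libraries and from 13.9 to 37.7 CPM in neuronal libraries. Flt4, Mmrn1 and Reln had interactions of -5.11, -5.82 and -4.41 without a call, and Pdpn, which other wall cells also express, was at 0.56. Which cells carried Pdpn here was not tested. Of 11 markers of blood endothelium, Ecscr was called (interaction -6.57), with no count in colonic neuronal libraries, but it lost its call in 13 of the 16 fits without 1 library (edgeR adjusted p up to 0.0944). The blood endothelial list had a median of -2 (-3.18 with low groups set at 3 counts), with 7 of 11 below 0. At an unadjusted p below 0.05 in edgeR, 5 of the 11 passed, all negative, beside 2333 of all 17618 genes. The list summed to 223 to 644 CPM in colonic and 78.8 to 246 CPM in small intestinal non-neuronal libraries. However, 6 of the 11 had a group of at most 3 counts, and without those 6 the median was 1.02.

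Muc2, the gel-forming mucin of goblet cells, was at 1623, 11440, 2512 and 4845 CPM in colonic non-neuronal libraries and at 270, 245, 341 and 703 CPM in small intestinal non-neuronal libraries. Muc2 was at 6.92 to 14.2 CPM in colonic and at 5.89 to 21.4 CPM in small intestinal neuronal libraries. Non-neuronal groups did not overlap and neuronal groups did, and the interaction was -3.73 (SE 0.82, edgeR adjusted p = 0.0411). The call of Muc2 was lost in 10 of the 16 fits without 1 library, among them that without small intestinal neuronal replicate 1 (-3.80, adjusted p = 0.0861), with adjusted p from 0.0561 to 0.123. Tmem45b and Tns4, both expressed in gut epithelium, were highest in the same replicate 2, Tmem45b at 268 CPM against 8.59, 58.7 and 211 CPM and Tns4 at 358 CPM against 3.12, 25.1 and 48.1 CPM. In the other 3 groups every library of Tmem45b lay at or below 2.18 CPM and every library of Tns4 at or below 1.39 CPM. Without colonic non-neuronal replicate 2 the interaction of Tns4 was -6.49 and was not called (edgeR adjusted p = 0.167), while that of Tmem45b was -9.23 (adjusted p = 0.0199). Tns4 was not called without small intestinal neuronal replicate 2 either (adjusted p = 0.0544). The 9 tested epithelial markers had a median of -2.24 (-2.79 with low groups set at 3 counts). Without the 4 that had a group of at most 3 counts it was -0.752. The summed level of the list was 1727 to 12850 CPM in colonic non-neuronal libraries, 356 to 811 CPM in small intestinal non-neuronal libraries and 19.8 to 89.0 CPM in neuronal libraries. Most of the sum in non-neuronal libraries was Muc2 itself, so the sum is not separate from the Muc2 call. The part of epithelial RNA in these calls was not tested. Neurl1b, a ubiquitin ligase that acts on Notch ligands, held 26.2, 28.4, 130 and 7.56 CPM in colonic non-neuronal libraries and at most 11.3 CPM elsewhere (interaction -10.84). Its call was lost without colonic non-neuronal replicate 3 (-9.68, edgeR adjusted p = 0.0880) and without colonic neuronal replicate 1, 2 or 4 (adjusted p 0.0504 to 0.0518). Sgms2, a sphingomyelin synthase, had its highest mean in colonic non-neuronal libraries (13.3 to 41.8 CPM) but belonged to the neuronal set, with 2.23 to 19.1 CPM in neuronal libraries and 1 count in all in small intestinal non-neuronal libraries. Its interaction of -8.12 was not called without colonic non-neuronal replicate 4, colonic neuronal replicate 1 or 4, or small intestinal neuronal replicate 1 or 3 (edgeR adjusted p 0.0510 to 0.0561).

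The 16 genes carried by both non-neuronal groups and not by colonic neuronal libraries had medians of 271 CPM in colonic non-neuronal, 294 CPM in small intestinal non-neuronal, 86.0 CPM in small intestinal neuronal and 2.37 CPM in colonic neuronal libraries. In all 16 every small intestinal neuronal library lay above every colonic neuronal library. This count uses the values that chose the set, and its share over all tested genes was not counted. Fendrr, a long noncoding RNA of lateral mesoderm, held 386, 314, 369 and 191 CPM in colonic non-neuronal and 638, 427, 453 and 465 CPM in small intestinal non-neuronal libraries. It was at 122, 14.8, 32.2 and 40.6 CPM in small intestinal neuronal and at 0.413, 0.812, 0.513 and 1.11 CPM in colonic neuronal libraries (interaction -5.25, SE 0.72, edgeR adjusted p = 4.1e-04). Replicate 1 was the highest of the small intestinal neuronal libraries for Fendrr, and without it the interaction was -4.43 (adjusted p = 8.5e-04).

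Ano1, the calcium-activated chloride channel of interstitial cells of Cajal, stood at 679, 106, 107 and 96.9 CPM in small intestinal neuronal libraries and at 0.413, 1.62, 0 and 0.279 CPM in colonic neuronal libraries. Its non-neuronal libraries held 119, 154, 86.9 and 142 CPM in the colon and 397, 36.4, 97.7 and 140 CPM in the small intestine. Small intestinal neuronal libraries thus held Ano1 at non-neuronal levels even apart from replicate 1. The interaction was -8.07 (SE 1.14, edgeR adjusted p = 7.4e-04), and -6.82 without that library (adjusted p = 8.5e-04). Prkcq, a protein kinase C of the same cells, and Adgrd1, an adhesion receptor, were sorted with the 13 genes of other patterns because 1 non-neuronal group fell under the limit, but for both every colonic neuronal library lay below every other library. Prkcq was at 228, 37.5, 53.0 and 87.6 CPM in small intestinal neuronal libraries and 3 counts in all in colonic neuronal libraries, and with 6.71 to 53.1 CPM in colonic and 3.80 to 46.0 CPM in small intestinal non-neuronal libraries (interaction -8.44, SE 1.37, edgeR adjusted p = 0.0022). Adgrd1 was at 932, 138, 84.4 and 256 CPM in small intestinal neuronal, 106 to 231 CPM in small intestinal non-neuronal, 49.96 to 136 CPM in colonic non-neuronal and 0.541 to 2.31 CPM in colonic neuronal libraries (interaction -6.57, and -5.48 without small intestinal neuronal replicate 1). Of the 6 interstitial cell markers Ano1 and Prkcq were called, beside 0.891% of all genes tested. All 6 lay below 0, beside 9714 of all 17618 genes, and the list median was -4.96, or -3.88 with groups of at most 3 counts set at 3. Kit, the receptor that defines these cells, had an interaction of -4.34 (SE 1.304, edgeR adjusted p = 0.127), with 89.0 to 581 CPM in small intestinal and 0.256 to 20.6 CPM in colonic neuronal libraries.

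Tnc, a matrix glycoprotein, Heg1, a cell junction receptor, and Arhgef5, a guanine nucleotide exchange factor, were also carried by both non-neuronal groups. Tnc was at 4.13 to 8.97 CPM in colonic neuronal and at 218, 49.98, 45.1 and 37.6 CPM in small intestinal neuronal libraries, with 188 to 561 CPM in colonic and 233 to 338 CPM in small intestinal non-neuronal libraries (interaction -4.00, SE 0.71, edgeR adjusted p = 0.0051). Heg1 was at 1.90 to 6.61, 23.8 to 62.7, 316 to 428 and 481 to 803 CPM in colonic neuronal, small intestinal neuronal, colonic non-neuronal and small intestinal non-neuronal libraries (interaction -2.69). Fitted with all 28 libraries, Heg1 (-2.79, edgeR adjusted p = 0.0508), Lyve1 (-6.00, adjusted p = 0.0534) and Arhgef5 (-3.97, adjusted p = 0.156) were not called. Arhgef5 was at 119 CPM in small intestinal neuronal replicate 1 and at 13.1 to 17.5 CPM in the other 3, and without that library its interaction of -3.87 became -2.40 and was not called (edgeR adjusted p = 0.0505), nor was it without colonic neuronal replicate 1 or 2 or small intestinal non-neuronal replicate 2 (adjusted p 0.0511 to 0.0590). Tnc and Prox1 overlap noncoding genes on the other strand. The transcription factors Osr1, Meis2 and Tcf7l2 belonged to this set (interactions -5.17, -3.52 and -2.38), and their calls were lost in 8, 13 and 14 of the 16 fits without 1 library (edgeR adjusted p up to 0.130, 0.123 and 0.128). So did mt-Nd1 and mt-Rnr2 of the mitochondrial genome (interactions -1.83 and -1.82, lost in 4 and 9 of the 16 fits), and mt-Nd1 ran at 92.5 to 116 CPM in colonic neuronal, 588 to 1432 CPM in small intestinal neuronal, 800 to 1520 CPM in colonic non-neuronal and 1888 to 2723 CPM in small intestinal non-neuronal libraries, in step with the mitochondrial share of counts. None of 12 smooth muscle markers was called by edgeR, beside 0.891% of all genes tested, so the lack of a call in so short a list says little. At an unadjusted p below 0.05, 3 of the 12 passed, beside 2333 of all 17618 genes, and the list median was 0.49.

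**Figure D4:**
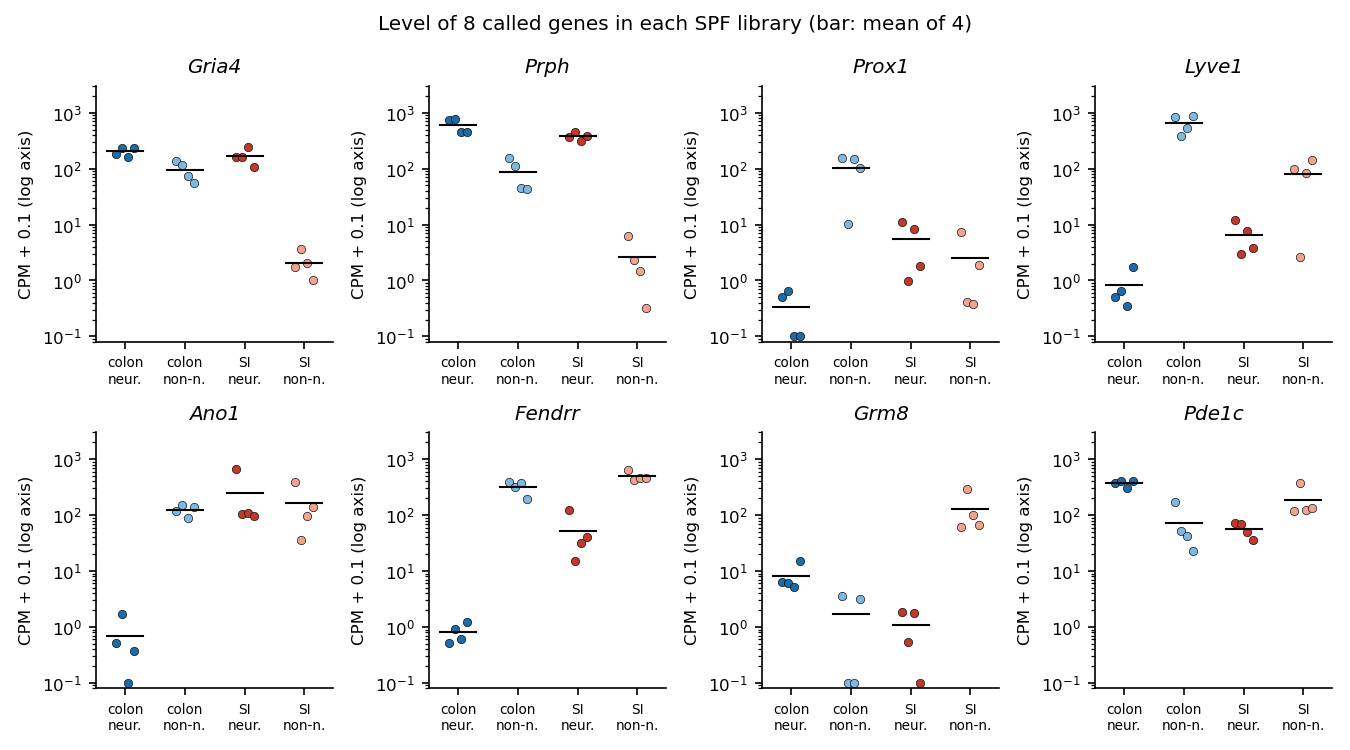
CPM + 0.1 (log axis) of 8 called genes in each SPF library, with a bar at the mean of 4. Gria4 and Prph are low in small intestinal non-neuronal libraries, Prox1 and Lyve1 are highest in colonic non-neuronal libraries, Ano1 and Fendrr are near 0 in colonic neuronal libraries, and Grm8 and Pde1c have a positive interaction.

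Sst was 1 of the 13 negative genes of other patterns. Sst, the peptide somatostatin of a class of enteric interneurons, held 351, 154, 148 and 156 CPM in colonic neuronal and 186, 116, 128 and 96.7 CPM in colonic non-neuronal libraries. It held 60.0, 20.3, 19.6 and 13.3 CPM in small intestinal neuronal and 0 to 1.27 CPM in small intestinal non-neuronal libraries. The colonic groups partly overlapped and the 2 small intestinal groups lay below them, with an interaction of -5.29 (SE 1.01, edgeR adjusted p = 0.0084). Sst was the 1 called gene of 18 tested genes for transmitters and peptides, whose median was -2.39, or -1.71 with low groups set at 3 counts. Without small intestinal non-neuronal replicate 1, 6 genes of that list were called. Epha8, a receptor of axon guidance, and Cdh9, a type II cadherin, were carried by small intestinal neuronal libraries, at 45.1 to 149 CPM and 8.61 to 38.7 CPM, with no count of either in small intestinal non-neuronal libraries and no count of Cdh9 in colonic neuronal libraries. Their calls were lost in 9 and 10 of the 16 fits without 1 library (edgeR adjusted p up to 0.0942 and 0.136). Cdc14a, a phosphatase, was the 1 negative called gene with every group mean at or above 0.25 of its highest, at 30.8 to 116 CPM in colonic neuronal, 100.3 to 340 CPM in small intestinal neuronal, 185 to 287 CPM in colonic non-neuronal and 46.8 to 72.2 CPM in small intestinal non-neuronal libraries (interaction -3.30, SE 0.59, edgeR adjusted p = 0.0051).

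Positive interactions were fewer, and small intestinal non-neuronal libraries carried 13 of the 20 genes at their highest mean, with colonic neuronal libraries carrying the other 7. Grm8, a metabotropic glutamate receptor, held 61.2, 291, 101 and 66.1 CPM in small intestinal non-neuronal libraries. It held 6.20, 5.96, 5.13 and 15.3 CPM in colonic neuronal, 3.51, 0, 0 and 3.02 CPM in colonic non-neuronal and 1.76, 0.437, 1.67 and 0 CPM in small intestinal neuronal libraries. Small intestinal non-neuronal libraries lay above all others, colonic neuronal libraries lay next, and the remaining 2 groups overlapped (interaction 9.81, SE 1.52, edgeR adjusted p = 0.0014). Pde1c, a calmodulin-dependent phosphodiesterase that breaks down cyclic nucleotides, had its highest means in colonic neuronal and small intestinal non-neuronal libraries. It stood at 380, 400, 304 and 414 CPM in colonic neuronal and 118, 377, 126 and 135 CPM in small intestinal non-neuronal libraries, and at 175, 51.8, 43.1 and 23.2 CPM in colonic non-neuronal and 73.6, 68.1, 49.3 and 35.7 CPM in small intestinal neuronal libraries. The neuronal groups did not overlap, and the non-neuronal groups overlapped only through colonic replicate 1. Its segment difference was 2.55 in neuronal libraries (adjusted p = 0.0153, with 0.499% of genes called in that contrast) and -1.89 in non-neuronal libraries (adjusted p = 0.0364, with 4.01% called), both by edgeR. Of the 157 genes, Pde1c was the 1 gene with calls of opposite sign in these 2 contrasts, which share their libraries with the interaction (4.44, SE 0.73, edgeR adjusted p = 0.0023). It was also the 1 called gene of 18 cyclic nucleotide phosphodiesterases, whose median was -0.17.

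Tm6sf1, a membrane protein of lysosomes, was at 350, 394, 380 and 337 CPM in small intestinal non-neuronal libraries and at 47.1 to 84.1 CPM in colonic neuronal, 39.6 to 78.5 CPM in small intestinal neuronal and 5.85 to 61.9 CPM in colonic non-neuronal libraries (interaction 3.88, SE 0.69, edgeR adjusted p = 0.0051). Tm6sf1 overlaps Hdgfl3 on the other strand. Kcnn3, the small-conductance potassium channel of PDGFRA-positive cells, was at 364, 665, 357 and 589 CPM in small intestinal non-neuronal and 343, 214, 247 and 446 CPM in colonic non-neuronal libraries. In neuronal libraries the order was turned, with 478, 312, 206 and 292 CPM in the colon and 135, 167, 117 and 107 CPM in the small intestine. The non-neuronal groups overlapped and the neuronal groups did not (interaction 2.22, SE 0.48, edgeR adjusted p = 0.0235). The call of Kcnn3 was lost without colonic non-neuronal replicate 2 or 3, colonic neuronal replicate 1 or small intestinal neuronal replicate 3 (interactions 1.89 to 2.13, edgeR adjusted p 0.0520 to 0.0618). Kcnn3 was the 1 called gene of 10 fibroblast and PDGFRA cell markers, whose median was 1.51. Cacna1e, a subunit of R-type calcium channels, was the 1 called gene of 22 neuronal ion channels, at 832 to 1051 CPM in colonic neuronal, 809 to 965 CPM in small intestinal neuronal, 373 to 767 CPM in colonic non-neuronal and 1050 to 1445 CPM in small intestinal non-neuronal libraries (interaction 1.44, SE 0.34). Cacna1e lost its call in 12 of the 16 fits without 1 library (edgeR adjusted p up to 0.117), and without small intestinal non-neuronal replicate 1 the ion channel list held 6 called genes. The other positive genes with a name were Tmem65, Dgkb, Dgkq, Col27a1, Lurap1, Coro1c, Auts2, Cdk17, Sctr, Rab11fip2 and Mfrp, each of which lost its call in 6 to 13 of the 16 fits.

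In the fit of all 16 libraries, lists of other pathways gave no call: genes of RET, endothelin and neurotrophin signalling (16 tested, median -1.37), Hox groups 3 to 8 (16, -0.35) and 9 to 13 (7, -5.06), cholesterol synthesis (21, -1.05), immediate early genes (12, -0.67), nuclear long noncoding RNAs (7, -1.05) and Wnt modulators (12, -1.15). At an unadjusted p below 0.05, 7, 1, 0, 4, 3, 4 and 5 of their members passed with edgeR, beside 2333 of all 17618 genes. By adjusted p, 0.891% of all genes were called. Markers of glia (7 tested, median -2.42), macrophages (9, -1.32), mesothelium (6, 1.65) and pericytes (4, -1.41) also had no called member, with 3, 1, 0 and 2 members at an unadjusted p below 0.05. Without small intestinal non-neuronal replicate 1 calls appeared in several of these lists, among them Gfra2, Ret and L1cam of the RET list, Hoxd3 of groups 3 to 8, Fdps of cholesterol synthesis, Meg3, Snhg11 and Rian of the nuclear long noncoding RNAs and Cspg4 of the pericytes. The macrophage gene Csf1r was called without colonic neuronal replicate 2. The 25 axon guidance genes held 2 called members, Slit1 and Epha8, and a median of -0.69, and the 12 cadherins held Cdh9 and a median of -2.34. Slit1 lost its call in 11 of the 16 fits without 1 library (edgeR adjusted p up to 0.102), and the calls held by these 2 lists ranged from 0 to 3 and from 0 to 2. For the 9 to 13 group of Hox genes, 6 of 7 tested members had a group of at most 3 counts, so their fitted values depend on the prior count. Lists of epithelium specific to 1 segment held Muc2 of 3 tested colonic markers (median -0.50) and no called gene of 6 small intestinal enterocyte markers (-0.79). Of 18 transcription factors of enteric neurons, Phox2a and Meis2 were called (median -0.75, with 4 called without small intestinal non-neuronal replicate 1), and of 8 transcription factors of gut segments, Osr1 (-2.39). Of 13 mitochondrial genes, mt-Nd1 was called (-1.21), and the 1 tested gene of the lymphocyte and mast cell list was not (-6.17). No pancreatic acinar or adipocyte marker passed the filter on low counts.

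Of the 157 called genes, 156 were found in GENCODE M21, with 115 protein coding and 41 not. Among the latter, 18 were loci annotated as TEC, a class of transcripts that await experimental support, which is 11.5% of the called genes against 8.44% of genes tested, and all 18 lay within a protein coding gene, 17 of them on its strand. The same share among all tested TEC loci was not counted, so this cannot be read as a trait of the called ones. Many sat in long genes of neurons: Gm43319, Gm10048, Gm43321, Gm43047, Gm42769 and Gm42770 in Kcnip4 and Gm44230, Gm44241 and Gm44229 in Lrrtm4. Gm43319 averaged 408, 267, 140 and 2.35 CPM in colonic neuronal, colonic non-neuronal, small intestinal neuronal and small intestinal non-neuronal libraries, while its host Kcnip4, a regulator of potassium channels, averaged 88.4, 24.2, 23.6 and 2.77 CPM and was not called (interaction -0.86, SE 1.11). Lrrtm4 was not called either, but its interaction was -3.33 (SE 0.948, edgeR adjusted p = 0.101). Of 27 called noncoding loci within a coding gene, 5 lay in a host that was itself called. Reads of nuclear RNA in introns of a host and reads of such a locus cannot be told apart in these tables. Coding genes that were called spanned a median of 56.1 kb against 26.8 kb for those tested.

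The GF libraries gave the same measure in samples that the SPF test did not use. Fitted on their own, 105 of 17881 genes were called with edgeR (0.587%), 9 positive (0.0503%) and 96 negative (0.537%). Of the 157 SPF-called genes 152 were tested in GF, 131 had the same sign (86.2%, against 57.9% of the 16654 genes tested in both), 16 were called with the same sign (10.5%) and none with the opposite sign. Their median interaction was -5.28 in SPF, where they were chosen, and -2.43 in GF. Without GF small intestinal non-neuronal replicate 2, 30 in place of 16 were called in both, and 224 in place of 105 in GF. Without GF colonic neuronal replicate 1, 2 or 3, GF colonic non-neuronal replicate 2 or GF small intestinal neuronal replicate 1 or 3, GF calls numbered 41 to 68. Among the 16 genes were Dscaml1, Dscam, Fam155a, Pcdh15, Fstl5 and Pirt of the neuronal set, with Gm43319, Gm42770 and Gm43776, then Ano1, Ccl21a, Grm8, Pde1c and Col27a1. The same sign was found for 83 of 92 genes of the neuronal set, 11 of 14 tested genes of the colonic non-neuronal set, 10 of 16 genes of the set of both non-neuronal groups and 16 of 18 tested positive genes.

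Values in GF libraries are given for 4 of the genes called in both sets of mice. Dscam stood at 137, 147 and 118 CPM in colonic neuronal, 129, 170 and 167 CPM in small intestinal neuronal, 43.8, 28.6 and 9.58 CPM in colonic non-neuronal and 0, 0.509 and 0.410 CPM in small intestinal non-neuronal libraries (GF interaction -5.93, SE 1.04, edgeR adjusted p = 0.0068). Pde1c stood at 587, 601 and 511, 67.6, 37.5 and 15.02, 51.7, 38.6 and 41.1, and 77.7, 148 and 77.0 CPM in the same order (GF interaction 5.69, SE 0.69, edgeR adjusted p = 7.3e-04). Grm8 was again highest in small intestinal non-neuronal libraries, at 23.8, 98.7 and 18.4 CPM, with at most 5.05 CPM in any other GF library. Ano1 was at 52.9, 24.2 and 76.5 CPM in small intestinal and at 0.266, 1.35 and 0.590 CPM in colonic neuronal GF libraries. Genes without that match included Prr36, at 73.0 to 174 CPM in SPF colonic neuronal libraries and with a GF interaction of 0.19 (SE 0.90, edgeR adjusted p = 0.982), Lyve1 (1.41, SE 1.70) and Heg1 (0.35, SE 0.92). The difference between the SPF and the GF interaction, tested in all 28 libraries, was called for 0 of 20964 genes (0%) with edgeR, with 1640 genes at an unadjusted p below 0.05. For Prr36 and Lyve1 that difference was therefore not called either, and a p that misses the threshold does not show that the values are alike.

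**Figure D5:**
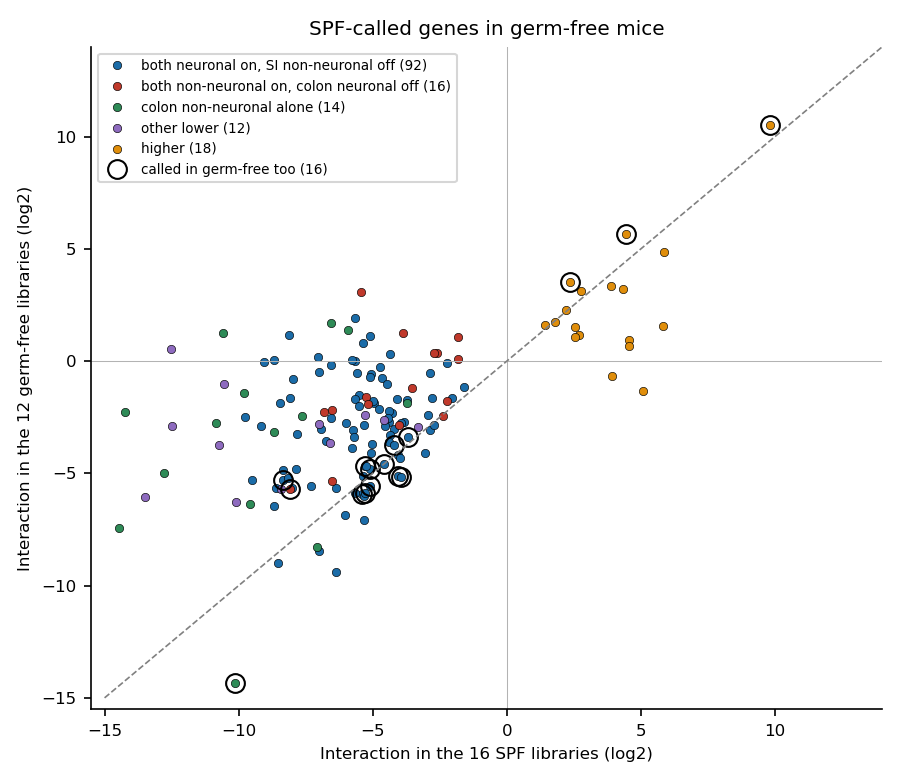
Fitted interaction (log2) in the 16 SPF libraries (x axis) and in the 12 GF libraries (y axis) for the 152 SPF-called genes tested in both, coloured by the groups that carry them in SPF, with rings on the 16 genes called in both. Most points of either sign on the x axis keep that sign on the y axis (131 of 152), and most lie closer to 0 in GF.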

How the data were processed

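Nuclear RNA of 28 sorted samples was sequenced. The authors deposited expected counts per gene (7.48% of values not whole), and per the submitters' processing notes the tools and build named were RSEM 1.3.0, STAR 2.5.2, DESeq2 1.10.1 and GRCm38, with no role or order given. Per the labels, libraries were 75 bp single-end reads. The sources used here do not give strandedness. Samples were grouped by their labels. Expected counts were rounded, genes kept by filterByExpr, scaled by TMM and tested with edgeR 4.0.16 (quasi-likelihood, robust, R 4.3.3) with a mean for each of the 4 SPF groups, and Benjamini-Hochberg adjustment over all 17618 genes. Standard errors are the fold change divided by the root of F. The 12 GF libraries were fitted in the same way. The script was tested on simulated data.

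Of 51912 IDs, 51633 matched a symbol. Named genes were, for each SPF group of highest mean (at least 5 CPM), the 7 called genes of lowest p. Some genes are not reported here. Others were named as list members or examples after their values were seen. Members and lists were chosen with earlier results of these data known. Promoters are from RefSeq (GRCm38.p6), and for each of 4 patterns the gene of lowest p whose window lay before the annotated gene was printed. Alternatives were other scaling, filters, libraries, a replicate block, an Xist term, DESeq2 1.42.0 and limma 3.58.1. Library totals without TMM, leaving out mitochondrial genes, leaving out both small intestinal replicate 1 libraries and leaving out each GF library were chosen after seeing the data. Correlations of same-numbered libraries stayed under the limit set for pairing.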

Additional observations from a re-analysis of the deposited data

Results flagged for a closer look

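Of 146 groups of 4 libraries examined, 15 (10.3%) held a library far from the other 3, where chance gives about 1 in 20. Small intestinal neuronal replicate 1 stood high for Ano1 (678.6 CPM against 96.9 to 106.9), Tnc (217.7 against 37.63 to 49.98) and Arhgef5 (118.8 against 13.1 to 17.54), and for the summed markers of interstitial cells of Cajal (2408 against 733.6 to 852.2). Small intestinal non-neuronal replicate 1 stood high for the same marker sum (1352 against 319.0 to 386.5) and for lymphocyte and mast cell markers (57.92 against 31.38 to 32.57). Small intestinal non-neuronal replicate 2 stood high for Pde1c (376.9 against 117.8 to 135.4) and for adipocyte markers (143.7 against 0.3236 to 1.392). It stood low for Lyve1 (2.532 against 82.39 to 140.9) and for the lymphatic marker sum (13.29 against 118.1 to 146.1). Without it the interaction of Pde1c was 3.72 and that of Lyve1 -5.51, both called with edgeR.

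Colonic non-neuronal libraries stood apart in 3 genes: Dscaml1 in replicate 4 (19.9 CPM against 48.29 to 54.55), Prox1 in replicate 2 (10.18 against 101.3 to 155.3) and Adgrd1 in replicate 3 (136.3 against 49.96 to 56.17). Grm8 was high in colonic neuronal replicate 4 (15.32 CPM against 5.127 to 6.196). The macrophage marker sum was low in small intestinal neuronal replicate 2 (6.984 CPM against 15.74 to 18.38).

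The difference between colon and small intestine differed between the fractions, by the interaction test, for 157 genes. In 1 of them, Pde1c, the segment difference was called in both fractions with opposite sign.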

How the results depend on the processing

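Of the 28 named genes, no interaction changed sign in any of 30 settings. Of 840 values, 764 stayed called and 76 did not, 26 of the latter on replicates 1 and 2 alone and 19 with limma-voom. The number called moved more. With edgeR 157 genes were called (20 positive, 137 negative, 92 in the neuronal set). With no filter on low counts 614 were called (108, 506, 268), with DESeq2 721 (163, 558, 321, with 156 of the 157 among them) and with limma-voom 40 (13, 27, 10, with 26 of the 157). Replicates 1 and 2 alone gave 6 (0, 6, 3), and replicates 3 and 4 alone gave 8 positive genes among 168. Without both small intestinal replicate 1 libraries 357 were called (330 negative, 267 in the neuronal set). Leaving out 1 SPF library at a time gave 88 to 455 called genes, 8 to 43 positive and 80 to 412 negative, with 53 to 320 in the neuronal set. Leaving out 1 GF library at a time gave 41 to 224 GF calls and 11 to 30 genes called in both. The cause of these shifts was not tested. With the replicate block 134 genes were called (18 positive, 116 negative), 113 of them among the 157, and Tns4 was lost (-7.62, adjusted p = 0.0717). The block cut the set of colonic non-neuronal libraries alone from 16 genes to 7. Same-numbered libraries correlated at -0.0222 to 0.0603, under the limit of 0.1 set for pairing, while 11 of 16 libraries correlated best with their own number, a hint from the data and not from the design. Fitted with all 28 libraries 187 SPF genes were called (22 positive, 165 negative, 109 in the neuronal set), 135 of them among the 157, and 44 in place of 105 in GF. The 2 sets of 16 genes became 10 and 10 with an Xist term, 88 and 75 with no filter, 61 and 79 with DESeq2, 4 and 4 with limma-voom, 1 and 0 on replicates 1 and 2 and 8 and 25 on replicates 3 and 4. A floor of 3 counts was 0.65 to 1.25 CPM, which limits genes at 0 in a group.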
